A study of Mus musculus with 6 samples.

Results

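The 95 genes described here are the cyclins, the cyclin-dependent kinases (CDKs) and their inhibitors, the genes that license replication origins, the E2F factors with the retinoblastoma family, and 3 markers of proliferation. They were chosen by symbol, under a rule set with earlier results of these data known. The rule took every symbol that starts with Ccn, Cdk, Cdkn, Mcm, Orc or E2f followed by the letters or numbers of those families. It also took Mki67, Top2a, Pcna, Cdc6, Cdt1, Gmnn, Rb1, Rbl1 and Rbl2. All 95 of them, of 35186 symbols in the table, had at least 1 count. The match by name also took in 10 genes named for binding a CDK or an inhibitor, 1 antisense RNA (Cdk19os) and 1 pseudogene (Cdk3-ps). RNA was sequenced from memory B cells of the spleen of C57BL/6J mice, sorted for binding the hapten NP. There were 3 libraries labelled Nix-/-Bnip3-/- (DKO), which lack both mitophagy receptors by their label, and 3 from wild-type mice (WT). Each library came from about 1000 cells. The labels state neither the age, sex or immunization of the mice, nor how the alleles were made, nor if replicates are separate animals. P-values thus measure the spread between these libraries, which may be technical.

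A memory B cell rests outside the cell cycle for long periods and divides quickly when it meets its antigen again. CDK inhibitors and the retinoblastoma family (the pocket proteins) hold a resting cell in G0 or G1: the inhibitors block the kinases, and the pocket proteins bind E2F factors and keep their targets silent. When cyclin D and cyclin E kinases inactivate the pocket proteins, E2F factors turn on genes for DNA replication. In G1 the origin recognition complex, Cdc6 and Cdt1 load the MCM2-7 helicase on DNA, which is called licensing, and geminin (Gmnn) blocks a second loading. Cyclin A and cyclin B kinases then drive S phase and mitosis. A separate set of cyclins and CDKs acts mainly on RNA polymerase II and on splicing, and Cdk7 among them also activates the cell cycle kinases.

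Mcm5 and Mcm6, subunits of the same helicase, gave the most opposed values of the licensing genes, and their promoters are shown for that reason. The sequences are the 250 bases before the RefSeq start on GRCm38.p6, read 5′ to 3′ along the gene. Capitals mark the word TTTGGCGC, an E2F-type site, on either strand.
Mcm5, chr8:75109259-75109508, plus strand: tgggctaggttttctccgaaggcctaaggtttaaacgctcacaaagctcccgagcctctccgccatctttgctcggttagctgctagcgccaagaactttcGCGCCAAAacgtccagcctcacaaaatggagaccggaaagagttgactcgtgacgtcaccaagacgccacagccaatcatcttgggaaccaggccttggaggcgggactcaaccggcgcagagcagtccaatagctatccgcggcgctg
Mcm6, chr1:128359706-128359955, minus strand: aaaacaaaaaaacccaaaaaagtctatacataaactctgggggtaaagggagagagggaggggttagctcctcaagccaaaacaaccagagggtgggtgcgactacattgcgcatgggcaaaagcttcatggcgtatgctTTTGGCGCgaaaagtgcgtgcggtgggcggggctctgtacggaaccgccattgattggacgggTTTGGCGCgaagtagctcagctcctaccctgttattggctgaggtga
The word began 149 bases before the start in Mcm5, on the reverse strand, and 110 and 47 bases before it in Mcm6. On both strands of 32851 RefSeq promoters, TTTGGCGC was in 0.514%, the other common spelling TTTCCCGC in 1.07%, and either in 1.56%. RefSeq promoters were matched for 77 of the 95 genes, 89 promoters in all, and 13 genes had either word: Cdc6, Cdk2, Cdkn2a, Cdt1, E2f2, E2f3, E2f7, Mcm3, Mcm5, Mcm6, Mcm7, Mcm8 and Orc3. These shares and the 13 genes were counted over each full promoter sequence, and not only over the 250 bases shown. A match describes letters in the sequence searched and no binding.

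DKO-labelled libraries had 444461, 517057 and 514854 counts, and the WT libraries 312908, 500527 and 319863. More genes had a count in DKO-labelled libraries (23580 to 24787) than in the WT libraries (17831 to 18486), also after thinning to 312908 counts (22112 to 22742 against 16737 to 18405). Values below are counts, or normalized CPM, which divide a count by the TMM-scaled size of its library. So 1 count was worth 1.84 to 2.26 normalized CPM in DKO-labelled libraries and 3.86 to 5.25 in WT libraries. Some values are also given per library total, without TMM. On that scale the groups were apart and higher in DKO-labelled libraries for 24.4% of all 8895 genes tested. They were apart and lower for 2.36%. Of the targeted genes, Bnip3 had 2, 24 and 11 counts in DKO-labelled libraries and 25, 62 and 6 in WT libraries, while Bnip3l (Nix) went against the label with 10, 16 and 41 against 1, 8 and 0. In both the groups overlapped once normalized, and neither passed (edgeR adjusted p = 0.412 for Bnip3 and 0.539 for Bnip3l, which was kept for the test through DKO-labelled libraries alone). The B cell marker Cd79a had 0, 2 and 4 counts in DKO-labelled libraries and 3, 0 and 0 in WT libraries. The 7 B cell markers summed to 193 to 269 normalized CPM in DKO-labelled libraries and 179 to 340 in WT libraries. The 6 monocyte and macrophage markers found of 7 summed to 400 to 792 against 47.0 to 310 normalized CPM. The 6 neutrophil markers summed to 54.2 to 131 against 141 to 368, with Ltf at 69.8% to 92.6% of the WT sums. The 6 stromal and endothelial markers summed to 335 to 412 against 471 to 1050, and 4 of them had lower means in DKO-labelled libraries. Pecam1 was higher in every DKO-labelled library, and Kdr had the higher mean there (119 against 63.7 normalized CPM). The 7 erythroid markers summed to 2.26 to 38.7 against 46.4 to 115, with Hbb-bs and Hba-a2 at 0 in every library. Without the most counted marker of each library the groups overlapped for the neutrophil (21.3 to 86.5 against 10.4 to 99.8), stromal and erythroid sums, and not for the monocyte sum. The marker left out differed between libraries, so that each DKO-labelled monocyte sum still held Lyz2 or Itgam. These genes were higher in every DKO-labelled library, and 4 of the 6 monocyte means were higher there. Csf1r (34.9 against 64.1 normalized CPM) and Spic (16.9 against 41.2) had lower means. The part of these other cells in the results below was not tested, and in bulk RNA fewer cells of a type and less RNA per cell cannot be told apart.

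None of the cell cycle genes passed the edgeR quasi-likelihood test at an adjusted p of 0.05. The test covered 38 of them, those with enough counts, and called 0, with 0% of all 8895 genes tested called as well (smallest adjusted p of these genes 0.390). The other 57 had between 1 and 228 counts over the 6 libraries and were left out of that test by its filter on low counts. EdgeR with no filter took in all 95 and called 0 of them (smallest adjusted p 0.0838, for Cdk16). It called few of the 31134 genes with a count, as given under the processing, so 0 of 95 does not set these genes apart. At an unadjusted p under 0.05, 3 genes were higher in DKO-labelled libraries (Mcm6, Ccnj and Ccnl2; background 5.49%) and 2 were lower (Mcm5 and Cdk18; background 6.59%). The 3 higher genes passed the filter through DKO-labelled libraries alone. A higher value there was thus built into their selection, and their p-values do not count as support for it. DESeq2 on the same genes called 1 of the 35 with an adjusted p higher (Ccnl2; background 2.57%) and 2 lower (Mcm5 and Cdk18; background 4.51%), limma-voom called 0 (background 0%), and DESeq2 on all genes with a count called Cdk16 alone of the 32 with an adjusted p, as lower (background 2.5%). Which of these genes were called thus depended on the method.

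The licensing helicase held the most opposed values. Mcm6 (chr1:128331590-128359664) had 21, 39 and 92 counts in DKO-labelled libraries and 3, 4 and 5 in the WT libraries. Every DKO-labelled library lay above every WT library, at 99.2 ± 69.5 against 19.1 ± 6.18 normalized CPM (SD, n = 3 each). Fitted on the log2 scale the difference was 2.36 (SE 1.00, edgeR adjusted p = 0.403), and 1.63 without DKO library 3. Mcm6 passed the filter on low counts through DKO-labelled libraries alone, as did Mcm9, Ccnj, Cdk17 and Ccnl2, so that a higher value there was built into their selection.

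Mcm5 (chr8:75109569-75128439) lay the other way, with 3, 7 and 20 counts in DKO-labelled libraries and 121, 24 and 12 in the WT libraries. Once normalized, all 3 DKO-labelled libraries (19.5 ± 16.96 normalized CPM) lay below all WT libraries (263 ± 320; SD, n = 3 each), and WT library 1 stood far above the rest. The fitted value was -3.72 (SE 1.27, edgeR adjusted p = 0.390; DESeq2 adjusted p = 0.0107), with -1.98 without WT library 1 and -4.70 without DKO library 3. Per library total the groups met, at 6.75 to 38.8 CPM of the total in DKO-labelled libraries and 37.5 to 387 in WT libraries.

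Mcm7 had 8, 12 and 37 counts in DKO-labelled libraries and 2, 14 and 0 in WT libraries, with groups that overlapped (log2 fold change 0.74, SE 1.20). Its exons overlap Ap4m1 and Cops6 on the other strand, and reads of such pairs cannot be told apart because the strand setting of the counting is not given. Mcm4 had 9, 45 and 8 counts against 4, 4 and 1, Mcm3 2, 2 and 6 against 30, 3 and 0, and Mcm2 6, 1 and 2 against 2, 7 and 0. These last 3 were under the filter, and in each of them the normalized groups overlapped. Per library total Mcm4 was apart, at 15.5 to 87.0 against 3.13 to 12.8 CPM of the total. Over all 6 subunits the sums were 49, 106 and 165 counts in DKO-labelled libraries and 162, 56 and 18 in the WT libraries, with 121 of the 162 counts of WT library 1 from Mcm5.

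**Figure D1:**
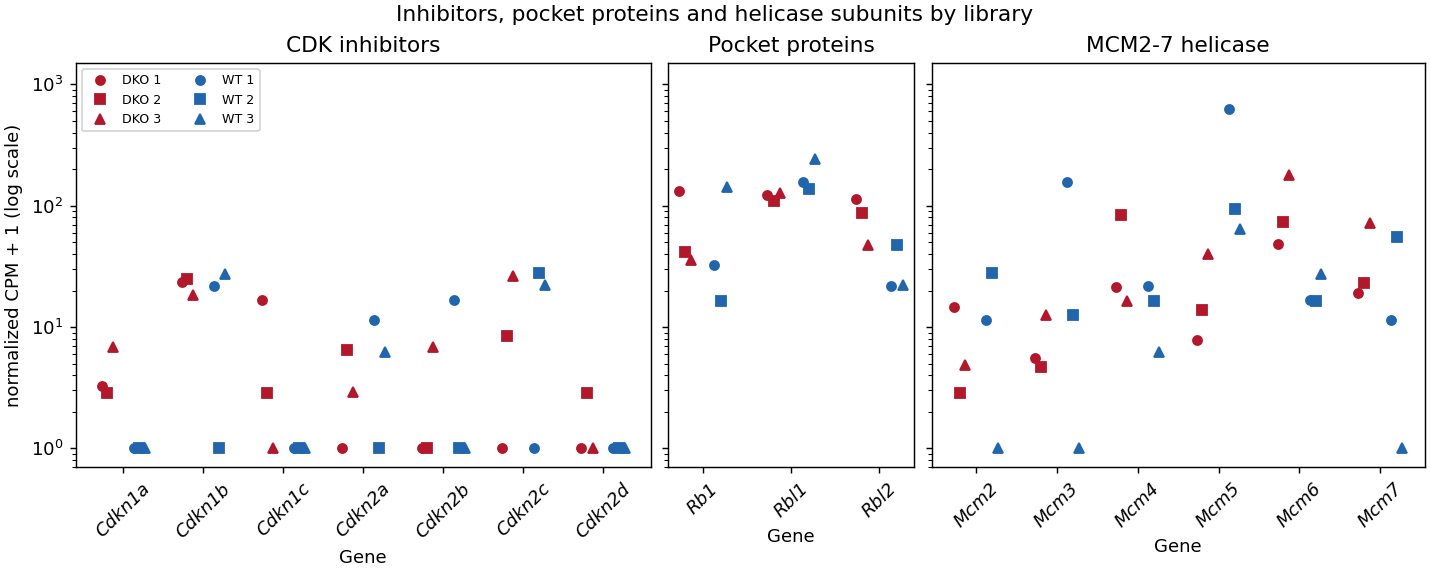
Normalized CPM plus 1 on a log scale for the 7 CDK inhibitors, the 3 pocket proteins and the 6 subunits of the MCM2-7 helicase, 1 point per library (red DKO, blue WT; points at 1 had no count). Mcm6 is higher and Mcm5 lower in all 3 DKO-labelled libraries, and most inhibitor points lie at or near 0 counts.

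The CDK inhibitors were close to the limit of detection. Together the 7 had 18, 23 and 29 counts in DKO-labelled libraries and 9, 7 and 10 in the WT libraries, and the filter left all of them out of the main test. Whether the sums were apart depended on the scaling. Per library total they were apart, at 40.5, 44.5 and 56.3 against 28.8, 14.0 and 31.3 CPM of the total. On that scale 24.4% of all genes tested were also apart and higher in DKO-labelled libraries. After TMM the inhibitor sums overlapped, at 40.7, 42.3 and 56.2 against 47.0, 27.0 and 52.5 normalized CPM. Cdkn1b, which encodes p27 and is the inhibitor best known for holding resting lymphocytes, had 10, 13 and 9 counts in DKO-labelled libraries and 4, 0 and 5 in WT libraries. Per library total these groups were apart (17.5 to 25.1 against 0 to 15.6 CPM of the total), and after TMM scaling they overlapped (21.3 ± 3.44 against 15.7 ± 13.9 normalized CPM; SD, n = 3 each).

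Cdkn2c (p18), an inhibitor of CDK4 and CDK6 used in B cell differentiation, had 0, 4 and 13 counts in DKO-labelled libraries and 0, 7 and 4 in WT libraries. Cdkn1a (p21), the p53 target that stops the cycle after DNA damage, had 1, 1 and 3 counts against 0 in each WT library, and no fold is given because both groups were under the WT floor of 3 counts (4.68 normalized CPM over that group). Cdkn1c (p57) had 7, 1 and 0 counts against 0 in every WT library. Its mean in DKO-labelled libraries was 1.26-fold the same floor and rested mainly on DKO library 1, with groups that overlapped at 0. That floor covers counting error only. Cdkn2a, Cdkn2b and Cdkn2d had at most 3 counts in any library. EdgeR with no filter called none of the 7 (smallest adjusted p 0.444). On so few counts this does not show that the inhibitors were alike in the groups.

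The pocket proteins were all tested, and lay on either side of 0. Rbl2 (p130, chr8:91070057-91123844), the family member that assembles the repressor complex of resting cells, had 50, 47 and 24 counts in DKO-labelled libraries and 4, 12 and 4 in the WT libraries. The groups did not overlap but nearly touched, since DKO library 3 and WT library 2 were at 46.5 and 46.4 normalized CPM. Its means were 82.0 ± 33.5 against 29.4 ± 14.7 normalized CPM (SD, n = 3 each), a log2 fold change of 1.45 (SE 0.94, edgeR adjusted p = 0.519) that stayed between 1.16 and 1.95 with any 1 library left out. Exons of Rbl2 overlap Aktip on the other strand.

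Rbl1 (p107, chr2:157145893-157204534), which is made by cycling cells, had 54, 59 and 65 counts in DKO-labelled libraries and 30, 35 and 46 in WT libraries. The order of the groups turned with the scaling. After TMM DKO-labelled libraries were all lower (119 ± 9.09 against 178 ± 56.2 normalized CPM, log2 fold change -0.58, SE 0.89), and with library totals alone the fold change was 0.19 and the groups overlapped. Rb1, the retinoblastoma gene, whose exons overlap Lpar6 and Rcbtb2, had 58, 22 and 18 counts against 6, 4 and 27. One library of each group was high, DKO library 1 and WT library 3, and the fold change of 0.14 (SE 1.08) ran between -0.69 and 1.56 with 1 library left out.

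Of the 8 E2F factors, E2f6 alone passed the filter. E2f6 encodes a repressor that acts without pocket proteins and had 8, 27 and 20 counts in DKO-labelled libraries and 13, 0 and 0 in WT libraries (log2 fold change 0.68, SE 1.37). All of its WT counts were in WT library 1, which lay above every DKO-labelled library once normalized. The other members had 8 to 47 counts each over all libraries, and their groups overlapped. E2f1, the activator best known for entry into S phase, had 0, 5 and 0 counts in DKO-labelled libraries and 0, 3 and 0 in WT libraries. E2f7 and E2f8, repressors that peak in S phase, had 8, 14 and 4 against 2, 14 and 5, and 5, 9 and 2 against 3, 2 and 0.

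Both tested genes for entry into S phase had fold changes below 0 that moved with WT library 3. Cdk2, the kinase of cyclin E, had 11, 18 and 23 counts in DKO-labelled libraries and 8, 1 and 92 in the WT libraries. WT library 3 held nearly all the WT counts, and the log2 fold change of -2.35 (SE 1.35) became 0.63 without it. Exons of Cdk2 overlap Pmel on the other strand. Ccnd3, the D cyclin that germinal centre B cells depend on, had 32, 33 and 92 counts in DKO-labelled libraries against 60, 4 and 103 in WT libraries (-1.48, SE 1.22; -0.65 without WT library 3). Its groups overlapped, with WT library 2 below every DKO-labelled library.

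The other G1 genes were under the filter. Ccnd2, the D cyclin induced by the B cell receptor, had 1, 28 and 2 counts in DKO-labelled libraries and 5, 54 and 3 in WT libraries. Ccne2 had 7, 8 and 9 against 2, 1 and 2. The DKO-labelled libraries were all higher for Ccne2, at 16.0 ± 1.36 against 8.27 ± 3.82 normalized CPM (SD, n = 3 each). Cdk4 had 2, 5 and 4 counts against 1, 0 and 2, and Cdk6 had 6, 1 and 9 against 10, 0 and 10.

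The B cyclins of mitosis lay in both directions, and the kinase they activate was counted mainly in 1 library. Ccnb2 had 22, 2 and 21 counts in DKO-labelled libraries and 0 in each WT library. Its mean in DKO-labelled libraries was 6.70-fold a floor of 3 counts over the WT libraries, which covers counting error only. DKO library 2, with 2 counts, was close to that floor. Ccnb1 had 25, 9 and 32 counts against 2, 6 and 3, and once normalized DKO library 2 was below WT library 2, while per library total the groups were apart (17.4 to 62.2 against 6.39 to 12.0 CPM of the total). Ccnb3, a B cyclin best known from germ cells, had 2, 7 and 8 counts against 2, 35 and 10. Ccna2, the cyclin of S phase and G2, was lower in the mean, with 5, 6 and 6 counts against 10, 15 and 2 (11.3 ± 0.288 against 40.2 ± 25.9 normalized CPM; SD, n = 3 each), and WT library 3 was below all DKO-labelled libraries. Its exons overlap Exosc9.

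Cdk1, the kinase of mitosis, had 191, 3 and 7 counts in DKO-labelled libraries and 0, 23 and 4 in WT libraries. DKO libraries 2 and 3 lay below WT libraries 2 and 3 once normalized. Ccnf, an E3 ligase subunit that limits the cycle in G2, was the 1 tested gene of this group, with 18, 30 and 14 counts against 3, 0 and 8 (log2 fold change 1.12, SE 1.16). After TMM WT library 3 lay between DKO-labelled libraries, and per library total the groups were apart (27.2 to 58.0 against 0 to 25.0 CPM of the total).

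The proliferation markers gave 3 patterns. Top2a, the topoisomerase of S phase to mitosis (chr11:98992943-99024189), had 132, 147 and 176 counts in DKO-labelled libraries and 37, 67 and 16 in the WT libraries. The groups did not overlap on either scale, at 303 ± 35.4 against 179 ± 88.3 normalized CPM (SD, n = 3 each; 0.76, SE 1.02, edgeR adjusted p = 0.770). After TMM they came close, with DKO library 2 at 271 and WT library 2 at 259 normalized CPM. Mki67, which encodes Ki-67, had 55, 391 and 41 counts in DKO-labelled libraries and 12, 18 and 31 in WT libraries. DKO library 2 held most of them, and the log2 fold change of 1.65 (SE 1.16) was 0.04 without it. Pcna, the sliding clamp of DNA polymerase, had 8, 4 and 7 counts in DKO-labelled libraries and 0, 1 and 95 in WT libraries, so that WT library 3 alone set its WT mean.

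Genes that mark origins and load the helicase were mixed as well. Cdc6 (chr11:98907801-98923940) had 80, 51 and 44 counts in DKO-labelled libraries and 15, 6 and 17 in the WT libraries. Per library total the groups were apart (85.5 to 180.0 against 12.0 to 53.1 CPM of the total). After TMM, WT library 3 lay above DKO library 3, with a fold change of 0.92 (SE 0.94, edgeR adjusted p = 0.694).

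Orc3, a subunit of the origin recognition complex, had 269, 25 and 20 counts in DKO-labelled libraries and 10, 5 and 267 in WT libraries. One library of each group was high, and the fitted -1.09 (SE 1.69) ran from -3.47 without DKO library 1 to 2.69 without WT library 3. Cdt1, the loading factor that geminin binds, had 0, 7 and 2 counts against 2, 64 and 0. Gmnn had 7, 7 and 3 against 1, 0 and 0, and Orc6 had 14, 4 and 8 against 0, 1 and 1. Both were higher in every DKO-labelled library, on few counts (11.5 ± 5.15 against 1.74 ± 3.02, and 18.2 ± 12.4 against 3.04 ± 2.72 normalized CPM; SD, n = 3 each). Orc4 had 14, 6 and 13 against 14, 2 and 4, with a fold change of -0.56 (SE 1.04) that was 0.14 with library totals alone.

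The 4 other genes with an Mcm symbol were all tested. Mcm9, a helicase of DNA repair, had 37, 23 and 15 counts in DKO-labelled libraries and 0, 7 and 4 in WT libraries. Its groups did not overlap, at 51.7 ± 28.5 against 16.0 ± 14.2 normalized CPM (SD, n = 3 each; 1.64, SE 1.12, edgeR adjusted p = 0.544). They came close, with DKO library 3 at 29.1 and WT library 2 at 27.0 normalized CPM. Exons of Mcm9 overlap Asf1a on the other strand. Mcm10, which helps the helicase start, had 65, 23 and 117 counts against 22, 241 and 1 (-1.34, SE 1.46; 1.20 without WT library 2). Mcm3ap, whose product GANP is known from germinal centre B cells and exports messenger RNA, had 60, 1066 and 66 counts against 8, 101 and 6 (2.26, SE 1.61; -0.27 without DKO library 2). Mcm8, the partner of Mcm9, had 4, 25 and 19 against 8, 5 and 6, a fold change of 0.00 (SE 0.92).

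**Figure D2:**
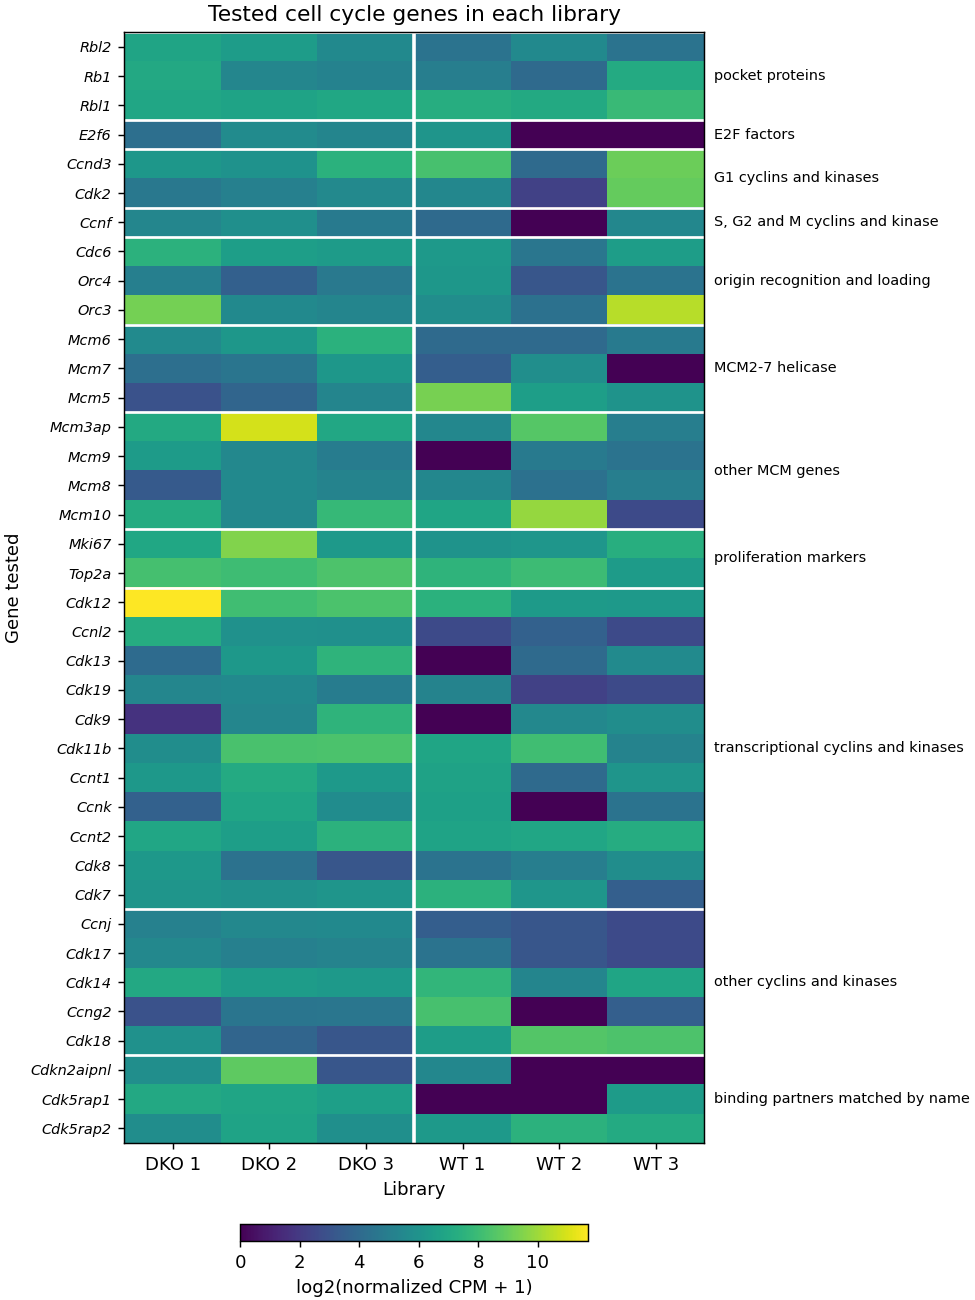
Expression of the 38 tested genes in each library as log2(normalized CPM + 1), with DKO libraries left of the white line and WT libraries right of it. Single bright cells, such as Cdk12 in DKO 1, Mcm3ap in DKO 2 and Orc3 in WT 3, stand beside low values in libraries of the same group.

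Quiescence genes were set against proliferation genes as sums. The quiescence side was the 7 CDK inhibitors with Rb1 and Rbl2. The proliferation side was 27 genes: 6 MCM2-7 subunits and Mcm10, Cdc6, Cdt1, Gmnn, Orc1 and Orc6, cyclins A2, B1, B2, E1, E2 and F, Cdk1, E2f1, E2f2, E2f7 and E2f8, Rbl1, Mki67, Top2a and Pcna. The quiescence sum was 285, 169 and 138 normalized CPM in DKO-labelled libraries and 99.2, 88.9 and 215 in the WT libraries. The proliferation sum was 1737, 1771 and 1458 against 1635, 2172 and 1360. After TMM neither sum separated the groups. Per library total both were higher in every DKO-labelled library. The values were 283, 178 and 138 against 60.7, 46.0 and 128 CPM of the total for quiescence. For proliferation they were 1728, 1861 and 1463 against 1000.3, 1123 and 810. On that scale 24.4% of all genes tested were also apart and higher in DKO-labelled libraries, and 2.36% lower.

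The ratio of the proliferation to the quiescence sum does not depend on how libraries are scaled. It was 6.10, 10.5 and 10.6 in DKO-labelled libraries and 16.5, 24.4 and 6.32 in the WT libraries. WT libraries 1 and 2 lay above every DKO-labelled library, and WT library 3 lay below DKO libraries 2 and 3. In WT library 3 Rb1 gave 27 of the 41 quiescence counts, and Pcna gave 36.7% of the proliferation counts. Without Rb1 the ratios were 11.3, 13.7 and 14.2 in DKO-labelled libraries and 24.1, 29.6 and 18.5 in the WT libraries, lower in every DKO-labelled library. Without Mki67 they were 5.66, 6.21 and 10.03 against 15.8, 23.7 and 5.56 and overlapped. Both genes were taken out after their values were seen. The quiescence sums in WT libraries rested on 19, 23 and 41 counts. Rbl1, a pocket protein placed on the proliferation side, had 30, 35 and 46 counts there, more than each of these sums. The ratios thus depend on the side given to Rbl1, and they were not computed with it as a quiescence gene. Of the 9 tested proliferation genes 6 had fold changes above 0, with a median of 0.76, and both tested quiescence genes lay above 0.

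**Figure D3:**
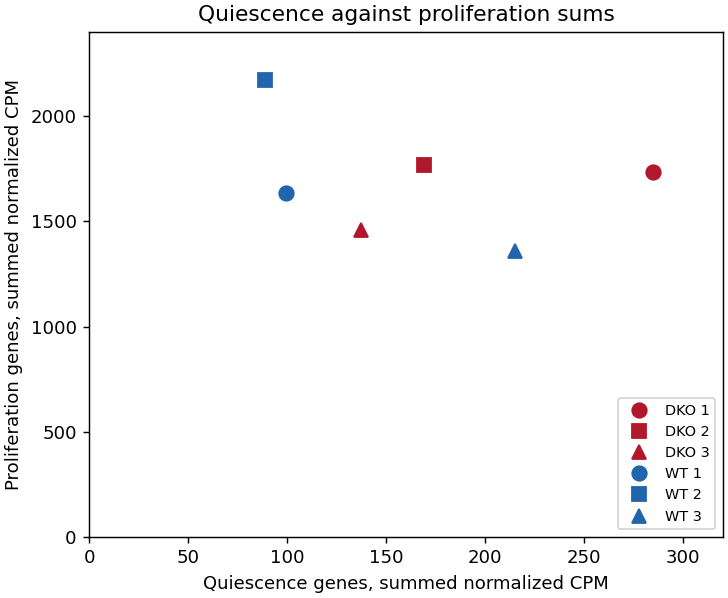
Summed normalized CPM of 9 quiescence genes (x axis) and 27 proliferation genes (y axis), 1 point per library (red DKO, blue WT). WT 3 lies among DKO-labelled libraries on the x axis, and on this TMM scale the proliferation sums of the groups overlap.

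The cyclins and kinases of transcription were the group with the most tested genes, 11 of 15, and 9 of the 11 had fold changes above 0 (median 0.73). Means were higher in DKO-labelled libraries for 12 of the 15. Their sums did not overlap, at 3999, 1303 and 1596 normalized CPM in DKO-labelled libraries and 872, 723 and 593 in the WT libraries. Cdk12, which phosphorylates RNA polymerase II with cyclin K, gave most of the sum in DKO library 1. Without it the sums were 681, 1029 and 1267 against 695, 641 and 515, so that after TMM DKO library 1 was below WT library 1. Per library total the groups were apart without it too, at 677, 1081 and 1270 against 425, 332 and 306 CPM of the total. On that scale 24.4% of all genes tested were also apart and higher in DKO-labelled libraries. Cdk12 was taken out after its values were seen.

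Ccnl2 (cyclin L2, chr4:155812489-155824543), a partner of the CDK11 kinases in splicing, had 66, 32 and 30 counts in DKO-labelled libraries and 1, 3 and 1 in the WT libraries. Every DKO-labelled library was far above every WT library, at 88.8 ± 52.4 against 7.36 ± 3.67 normalized CPM (SD, n = 3 each). Ccnl2 passed the filter through DKO-labelled libraries alone, so that a higher value there was built into its selection. Its fitted log2 fold change was 3.49, with an SE of 1.07 (edgeR adjusted p = 0.390; DESeq2 adjusted p = 0.0274), between 2.91 and 3.997 with any 1 library left out. Cdk12 (chr11:98203059-98278504) had 1467, 149 and 170 counts against 34, 21 and 15. Its groups did not overlap, and the fold change of 3.54 (SE 1.66, edgeR adjusted p = 0.418) was 1.42 without DKO library 1.

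Cdk13, a kinase closely related to Cdk12, had 7, 40 and 100 counts in DKO-labelled libraries and 0, 4 and 9 in WT libraries (2.17, SE 1.31). The range within DKO-labelled libraries was wide, and DKO library 1 lay among the WT libraries. Cdk19, a kinase of the Mediator complex, had 18, 25 and 15 counts against 7, 1 and 1 (1.35, SE 1.06), with groups apart per library total and not after TMM, and its exons overlap the antisense RNA Cdk19os. The remaining tested genes of the group, among them Cdk9, Ccnt1 and Cdk7, had fold changes between -0.43 and 1.31, each with groups that overlapped after TMM. Per library total Ccnt1 and Ccnt2 were apart and higher in DKO-labelled libraries, and the fold changes of Cdk7 and Cdk8 were above 0, at 0.32 and 0.73. Cdk10 had 7, 5 and 15 counts against 0, 2 and 0 and was under the filter.

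**Figure D4:**
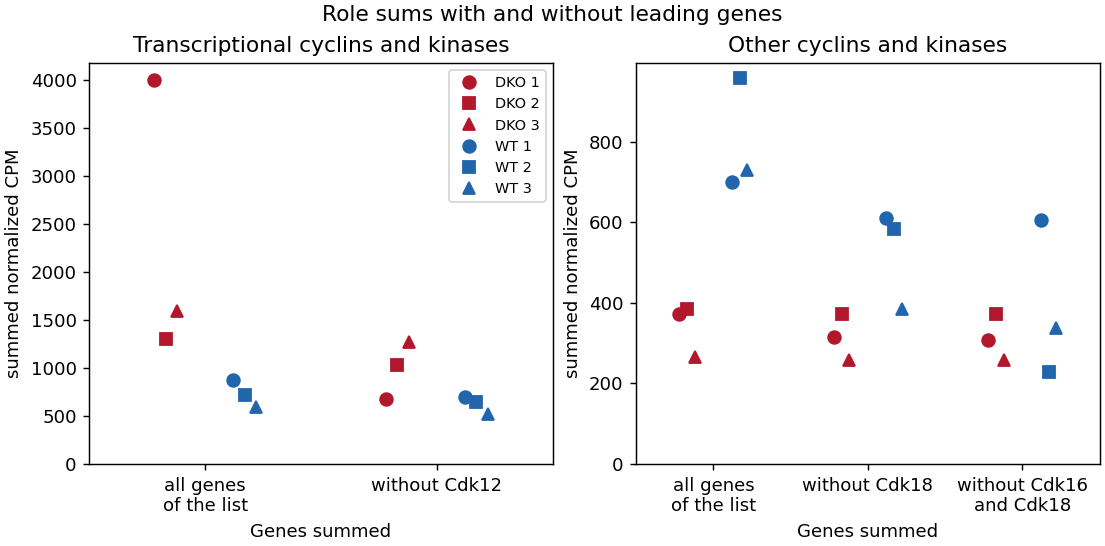
Summed normalized CPM per library of the transcriptional cyclins and kinases (left) and of the other cyclins and kinases (right), for all genes of the list and without the genes named on the x axis (red DKO, blue WT). On this TMM scale the gap between the groups closes without Cdk12 on the left, and without Cdk16 and Cdk18 on the right; per library total the left groups are still apart (677 to 1270 against 306 to 425 CPM of the total).

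The remaining cyclins and kinases, 13 genes with other or less settled roles, had lower sums in DKO-labelled libraries: 373, 385 and 265 normalized CPM against 700, 958 and 730 in the WT libraries. Cdk16 and Cdk18, kinases of the PCTAIRE family, made up most of that gap. Cdk18 (chr1:132112237-132139684) had 26, 7 and 4 counts in DKO-labelled libraries and 17, 97 and 66 in WT libraries. After TMM the groups did not overlap (26.5 ± 28.1 against 270.1 ± 158 normalized CPM; SD, n = 3 each), and per library total DKO library 1 passed WT library 1. The fold change was -3.34 (SE 1.17, edgeR adjusted p = 0.390; DESeq2 adjusted p = 0.0130). It was -4.64 without DKO library 1 and -2.55 with library totals alone. Cdk16 had 3, 0 and 0 counts against 1, 92 and 9, with groups that overlapped, and DESeq2 on all genes with a count called it (adjusted p = 0.0445). Without these kinases the sums overlapped, at 308, 372 and 258 against 606, 228 and 336.

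Cdk17, another PCTAIRE gene, lay the other way, with 19, 18 and 19 counts in DKO-labelled libraries and 4, 2 and 1 in WT libraries. All DKO-labelled libraries were higher, at 37.6 ± 4.98 against 11.3 ± 8.41 normalized CPM (SD, n = 3 each; 1.72, SE 0.99, edgeR adjusted p = 0.475). Ccnj (cyclin J) had 15, 23 and 24 counts against 2, 2 and 1. It was higher in every DKO-labelled library (2.34, SE 0.99, edgeR adjusted p = 0.398; 2.15 to 2.58 with 1 library left out). Both Cdk17 and Ccnj passed the filter through DKO-labelled libraries alone, so that a higher value there was built into their selection. Ccng2, a cyclin linked to arrest rather than to division, had 3, 12 and 12 counts against 59, 0 and 2 (-2.57, SE 1.53; 1.82 without WT library 1).

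The genes taken in by name have mixed roles. Cdk5rap1, which modifies mitochondrial transfer RNA, had 59, 63 and 49 counts in DKO-labelled libraries and 0, 0 and 16 in WT libraries. The groups did not overlap (114.8 ± 19.3 against 28.0 ± 48.5 normalized CPM; SD, n = 3 each; 2.05, SE 1.42, edgeR adjusted p = 0.549). The fold change was 1.44 without WT library 2 and 8.49 without WT library 3, which leaves the WT group at 0 counts. Cdkn2aipnl had 24, 239 and 4 counts against 8, 0 and 0 (3.596, SE 1.72). It was 1.11 without DKO library 2 and 9.03 without WT library 1, again with no WT count left, and fitted values against 0 counts depend on the prior count. Cdk5rap2, a centrosome protein, had 23, 60 and 29 against 15, 47 and 27 (-0.88, SE 0.90). Cdkn3, a phosphatase of CDKs, had 3, 6 and 3 against 0, 1 and 0, and the pseudogene Cdk3-ps had 1, 4 and 1 against 44, 0 and 0.

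Over all tested members, 25 of 38 had log2 fold changes above 0 (65.8%; background 45.5%), and their median was 0.70 against -0.17 over all genes tested. With library totals alone both medians moved up, to 1.47 and 0.62. The groups did not overlap for 9 of the 38 on the higher side (23.7%; background 12.8%) and for 3 on the lower side (7.89%; background 6.39%). The 9 were Mcm6, Mcm9, Rbl2, Top2a, Ccnl2, Cdk12, Ccnj, Cdk17 and Cdk5rap1, and the 3 were Mcm5, Rbl1 and Cdk18. Of the 9, 5 passed the filter through DKO-labelled libraries alone. Per library total the counts were 14 higher (36.8%; background 24.4%), which included the same 9 with Ccnf, Cdc6, Cdk19, Ccnt1 and Ccnt2, and 0 lower (background 2.36%).

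Among all 95 genes the groups did not overlap for 16 higher (16.8%; background 9.53%) and 4 lower (4.21%; background 3.98%), and the mean was higher in DKO-labelled libraries for 53 (55.8%; background 49.8%). The filter on low counts bears on these figures, since 28 of the 38 tested genes (73.7%) passed its minimum in more DKO-labelled libraries than WT libraries, and 2 (5.26%) in more WT libraries. Of all 8895 genes tested, 62.5% and 12.1% did so. The DKO-labelled libraries also had a count for more genes in general, as given above, and the part of this in the members' values was not tested.

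**Figure D5:**
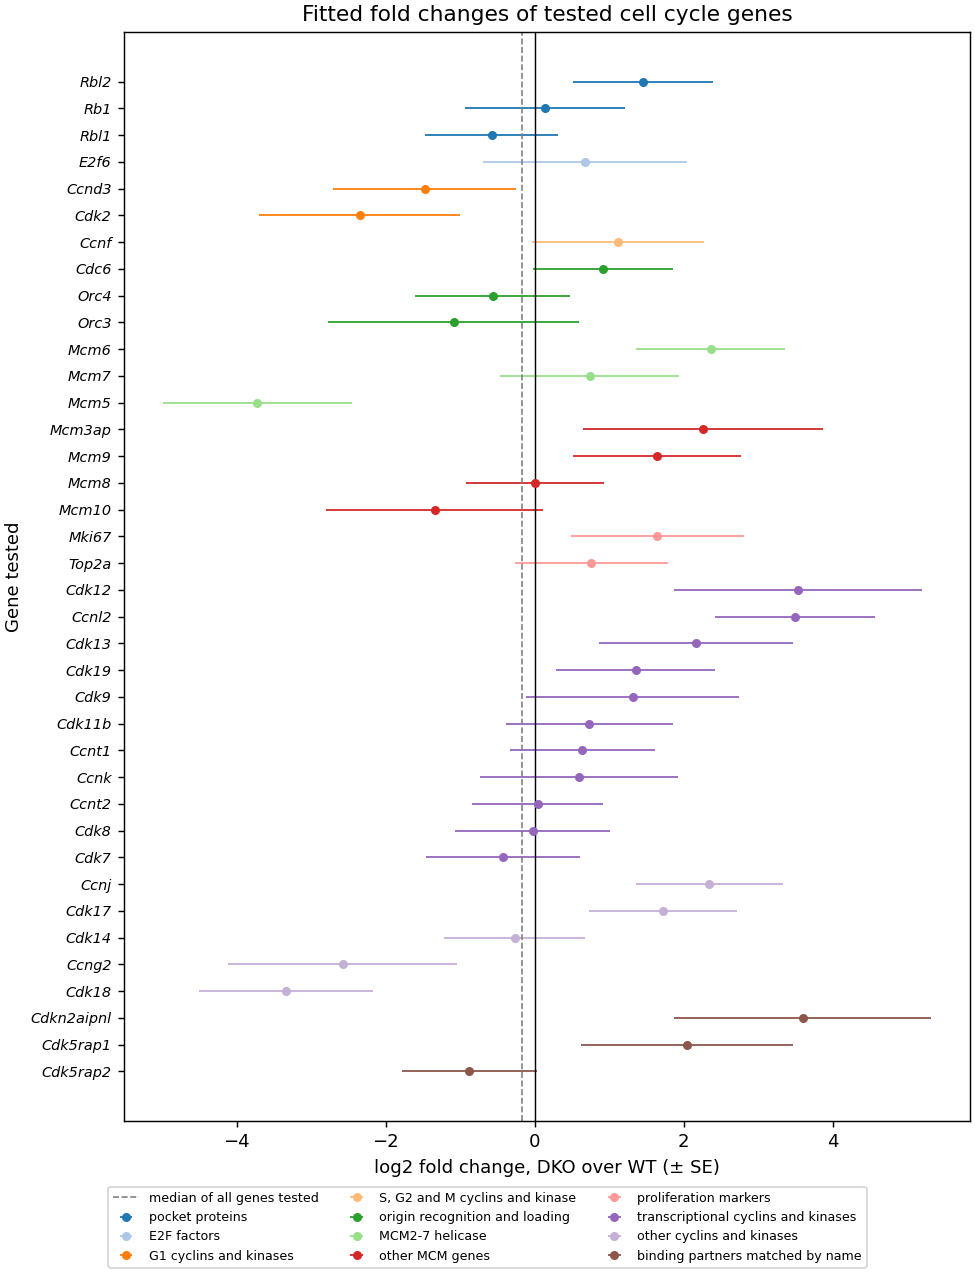
Fitted log2 fold change, DKO over WT, of the 38 tested genes with its standard error, coloured by role; the dashed line is the median of all genes tested (-0.17). Mcm5 and Mcm6 lie at -3.72 and 2.36, and none of the 38 passed the test adjusted over all genes.

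A single library often decided a value. In 13 of the 38, over 50% of the summed normalized CPM was in 1 library (34.2%; background 29.7%). Leaving out 1 library moved 30 of the 38 fold changes by over 1.5-fold, and 15 changed sign. Of the 50 members with at least 50 counts, 9 had over 70% of their counts in 1 library. In 5 it was a DKO-labelled library (Cdk12, Mcm3ap, Mki67, Cdkn2aipnl and Cdk1), and in 4 a WT library (Pcna, Cdk16, Cdt1 and Cdk3-ps). For the fold changes that moved and for these 9, the share over all genes was not computed. These counts thus do not set the members apart from other genes.

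Other genes of replication and division, listed by function, were mixed too, and edgeR called 0 of them. For DNA synthesis 19 of 32 were tested, 11 above and 8 below 0 (median 0.37). Prim1, the primase subunit that starts each new strand, had 57, 78 and 93 counts in DKO-labelled libraries and 3, 9 and 4 in WT libraries (2.63, SE 0.94, edgeR adjusted p = 0.390; DESeq2 adjusted p = 0.0411). Lig1, the ligase that joins Okazaki fragments, had 5, 6 and 14 against 12, 79 and 46 (-3.60, SE 1.07; DESeq2 adjusted p = 0.00385). Neither gene's groups overlapped, and they lay in opposite directions. Prim1 passed the filter through DKO-labelled libraries alone, so that its higher value there was built into its selection.

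For mitosis 13 of 24 were tested, 7 above and 6 below 0 (median 0.01). Mybl2, the transcription factor that joins the cell cycle activator complex, had 4, 28 and 2 counts in DKO-labelled libraries and 93, 220 and 15 in WT libraries (-4.43, SE 1.46; DESeq2 adjusted p = 0.00447; -6.16 without DKO library 2). All DKO-labelled libraries lay below the WT libraries once normalized. Kif23, a kinesin of cytokinesis, had 67, 51 and 124 counts against 8, 1 and 17 (1.85, SE 1.11), with all DKO-labelled libraries above the WT libraries. DKO library 2 and WT library 3 came close, at 93.9 and 89.3 normalized CPM.

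For checkpoints and CDK control 15 of 22 were tested, 6 above and 9 below 0 (median -0.33). Fzr1 (Cdh1), which holds the anaphase-promoting complex active in G1, had 1, 2 and 17 counts in DKO-labelled libraries and 29, 3 and 34 in WT libraries (-3.09, SE 1.32), with groups that overlapped. Btrc, a ubiquitin ligase subunit, had 64, 87 and 48 counts against 38, 204 and 349 (-2.82, SE 1.42), lower in all DKO-labelled libraries once normalized.

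For lymphocyte quiescence factors 8 of 14 were tested, 5 above and 3 below 0 (median 0.45). Foxo1, which keeps lymphocytes at rest and is needed by B cells, had 18, 32 and 18 counts in DKO-labelled libraries and 4, 4 and 1 in WT libraries (1.66, SE 0.97, edgeR adjusted p = 0.478). Foxp1 had 45, 61 and 38 against 4, 15 and 6 (1.36, SE 0.92, edgeR adjusted p = 0.536). In both, every DKO-labelled library lay above every WT library, and Foxo1, like Prim1, passed the filter through DKO-labelled libraries alone.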

How the data were processed

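The authors deposited 1 table of raw counts, with genes in rows and 6 columns that were matched to samples by name. The submitters' processing notes name mm10, CASAVA, STAR, edgeR, and R 3.6.3. Which tool counted the reads, with which strand setting and annotation, is not given in the sources used here. Per the labels' protocols, amplified cDNA enriched for polyadenylated RNA was made from about 1000 sorted cells per library, so reads are not independent molecules, and floors cover counting error only.

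The test was run in edgeR 4.0.16 under R 4.3.3 (with limma 3.58.1), over all 6 libraries: filterByExpr with a minimum count of 10, TMM scaling, the robust quasi-likelihood F test without covariates, and Benjamini-Hochberg adjustment over the 8895 genes kept, at a threshold of 0.05. Standard errors are the log2 fold change over the square root of F. TMM factors were 1.28, 1.38 and 1.28 in DKO-labelled libraries and 0.812, 0.695 and 0.785 in WT libraries, and the biological coefficient of variation was 0.915. The steps were tested on simulated data. A pass was required only where the simulated variation was far lower than in these libraries, so it does not speak to power here. DESeq2 1.42.0 and limma-voom were alternatives. Positions, exon lengths and overlaps are from GENCODE mouse release 21 on mm10, which had 1 gene for each of the 95 symbols. Exons of 35 overlap a gene on the opposite strand. Among them are Mcm9, Cdk17, Orc6, Ccne2 and Mcm3ap, so reads of these genes carry the limit given for Mcm7. Promoters are from RefSeq on GRCm38.p6. Python 3.11.15 was used.

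Members were picked by symbol, but the rule for them and the lists were set with earlier results of these data known. Named were Bnip3l and Bnip3, all inhibitors, pocket proteins, MCM2-7 subunits and proliferation markers, up to 4 tested genes with the smallest p of every other role, genes called by DESeq2, and up to 2 of each pathway list. Other genes named, such as Ccnb2, Ccne2, Cdk1, Gmnn and the E2F factors, were chosen after their values were seen. The marker lists for memory and germinal centre B cells, plasma cells and T cells summed to 249 to 319, 134 to 174, 60.0 to 344 and 120 to 193 normalized CPM in DKO-labelled libraries and 120 to 588, 126 to 298, 94.0 to 273 and 178 to 309 in WT libraries.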

Additional observations from a re-analysis of the deposited data

How the results depend on the processing

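Of the counts given, those of genes called changed with the method. EdgeR called 0 of 8895 genes and 0 members under TMM and under every other scaling. With no filter on low counts it called 130 of the 31134 genes with a count and 0 of 95 members. DESeq2 called 601 of the 8488 genes with an adjusted p, and 3 of 35 members. On all genes with a count, a fit added after the data were seen, it called 254 of 7911 genes and 1 of 32 members. Adding the replicate block gave 0 genes, 0 members and a member median of 0.96, and the numbers were not taken as pairs, since deviations of libraries with the same number correlated at 0.0227 to 0.0368 across genes, though each library correlated best with its own number. The median of the members was 1.47 with library totals alone, and between 0.29 and 0.92 with 1 library left out. Fold changes that changed sign by setting were those of Mcm8 (-0.12 with DESeq2 size factors, -0.11 with DESeq2, -0.26 with limma-voom and -0.16 with the replicate block), Rbl1 (0.19), Orc4 (0.14), Cdk7 (0.32), Cdk8 (0.73) and Cdk14 (0.46) with library totals alone, Mcm10 (0.70 with limma-voom and 0.25 with the replicate block), and Orc3 (0.56) and Ccng2 (0.0312) with the replicate block. Those of Cdk7, Cdk8, Cdk14 and Ccnt2, between -0.43 and 0.04 in the main test, also did so under other scalings, filters or methods. With 1 library left out, the 15 members whose sign changed were Rb1 (-0.69 to 1.56), Mcm3ap (-0.27 to 4.33), Mcm8 (-0.42 to 0.44), Mcm7 (-0.16 to 2.76), Orc4 (-1.05 to 0.68), Ccng2 (-3.16 to 1.82), Mcm10 (-1.93 to 1.20), Cdk2 (-2.93 to 0.63), Orc3 (-3.47 to 2.69), Cdk7 (-0.95 to 0.67), Cdk8 (-1.26 to 0.42), Cdk9 (-0.53 to 1.90), Cdk14 (-0.69 to 0.39), Ccnk (-0.37 to 2.57) and Ccnt2 (-0.28 to 0.23). The causes were not tested. Depth limits the low genes most: the filter left 57 of 95 members out of the main test, among them every CDK inhibitor.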

Other observations

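Per kilobase of exon, the members with the highest mean levels were Cdk12 (111 normalized CPM per kilobase), Mcm3ap (103), Cdkn2aipnl (85.5) and Cdk11b (63.0) in DKO-labelled libraries, and Orc3 (80.7), Pcna (69.8), Mcm5 (65.8) and Cdk18 (56.7) in the WT libraries. The 95 genes took 0.778%, 0.715% and 0.434% of all counts in DKO-labelled libraries and 0.281%, 0.268% and 0.354% in the WT libraries. Leaving out the most counted member of each library (Cdk12, Mcm3ap and Top2a in DKO-labelled libraries, and Mcm5, Mcm10 and Orc3 in the WT libraries) gave 0.448%, 0.509% and 0.400% against 0.242%, 0.219% and 0.271%. These shares are of all counts and carry no TMM scaling; the summed normalized CPM overlapped, at 7824, 6809 and 4325 against 4591, 5174 and 5950. A count was found for 83, 89 and 83 of the 95 genes in DKO-labelled libraries and for 67, 71 and 68 in the WT libraries. After thinning to 312908 counts this was 78, 82 and 79 against 67, 64 and 67. All genes went the same way, with 23580, 24787 and 24170 against 17831, 18410 and 18486. Thinned, they were 22146, 22742 and 22112 against 17831, 16737 and 18405. Wider detection was thus not particular to the 95 genes.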
